A study of Homo sapiens with 16 samples.

Results

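Nuclear RNA from HepG2 cells given siRNA against PANAD was compared with nuclear RNA from HepG2 cells given the control that the labels call NC, with 2 libraries on each side. These were 4 of the 16 libraries of the series, and all gene rows of the HepG2 count table that carry an Ensembl identifier were used. Of the 67938 rows, 17499 genes had enough reads to be tested. The series covers the cytoplasmic and nuclear fractions of HepG2 and SNU-449, a pair of human liver cancer lines. Cells of every group had been transfected for 48 h, either with NC or with siPANAD-1 and siPANAD-2 mixed together (siPANAD), so the effects of the 2 siRNAs cannot be told apart. HepG2 was grown in DMEM with fetal bovine serum, and RNA was taken from the fractions with Trizol. The replicates are biological duplicates per the series' design text, and no time other than 48 h was sampled.

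PANAD is the protein encoded by C7orf25, and the series title names an interaction with NXF1, nuclear export of the mRNA of CDK6 and the passage from G1 to S phase. An mRNA is made, spliced and capped in the nucleus, is bound by adaptor proteins and the receptor NXF1, and leaves through the nuclear pore. The amount of an RNA in the nucleus therefore depends on how fast it is made, how fast it leaves and how fast it decays there, and a level alone does not separate these. HepG2 is a line derived from a hepatoblastoma that keeps many traits of hepatocytes, such as secretion of plasma proteins and synthesis of cholesterol.

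The library totals were 16238235 and 17618795 counts for nuclear NC, and 17658232 and 16428517 for nuclear siPANAD. A count of 0 allows a level of up to 3 counts, which is 0.17 to 0.185 CPM (counts per 1e6 counts of the library). All 14 hepatocyte markers examined, ALB and HNF4A among them, were above 1 CPM in these libraries. Of the markers of other cell types, 3 of 12 for fibroblasts and stellate cells, 6 of 10 for endothelial cells, 7 of 14 for immune and blood cells and 6 of 9 for bile duct cells (cholangiocytes) reached 1 CPM in at least 1 of the 4 libraries. In each of these lists 1 marker (LUM, KDR, PTPRC and CFTR in turn) had 0 counts in all 4. MALAT1, a long non-coding RNA (lncRNA) kept in the nucleus, was at 370.2 to 395.8 CPM in the nuclear and 3.99 to 5.84 CPM in the cytoplasmic HepG2 libraries, before normalisation between libraries. How much cytoplasmic RNA the nuclear preparations carried was not measured. C7orf25 itself, with 0 and 2 counts in the NC libraries against 1 and 4 in the siPANAD libraries, was too low to be tested, and cannot show whether the knockdown worked. The 2 libraries of a group were farther apart than counting error alone gives (chi-square over its degrees of freedom 11.8 in nuclear NC and 5.22 with nuclear siPANAD). In the cytoplasmic HepG2 libraries, which enter the same fit, this value was 31.2 in NC and 5.33 with siPANAD.

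Levels below are CPM after TMM normalisation, which assumes that most genes do not change, and a shift common to most nuclear RNAs cannot be seen on this scale. A log2 fold change is siPANAD over NC, with its standard error (SE). A gene is called changed at an adjusted p under 0.05 (edgeR quasi-likelihood test, two-sided, Benjamini-Hochberg adjustment over all genes tested), and pairs of values are always given as replicate 1 and replicate 2. In bulk RNA, fewer cells that express a gene and less of its RNA per cell cannot be told apart.

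In the HepG2 nucleus 45.6% of the genes tested were called, 3843 higher (22.0%) and 4138 lower (23.6%) with siPANAD. These shares are the background against which the count in any gene list has to be read. Among genes called and changed at least 2-fold, 1759 were higher and 1169 lower, at least 4-fold 444 and 222, and at least 8-fold 99 and 40. Larger changes thus held more rises than falls. Over all calls, which direction was more frequent depended on the fit. DESeq2's Wald test called 2785 genes higher and 3466 lower, whereas rises outnumbered falls in a fit of only the 4 nuclear libraries (4431 and 4143) and with no filter on low counts (3897 and 3685). They also did so without cytoplasmic siPANAD replicate 1 (4016 and 3677) or 2 (4023 and 3681) or cytoplasmic NC replicate 2 (4506 and 4333). A test against a change of 1.5-fold rather than 0 called 1557 higher and 1219 lower. Without any 1 of the 4 nuclear libraries, fewer genes were called in each direction over all genes tested. List counts from such fits, given below, have to be read against that general loss of calls. Of the genes higher in the nucleus 62.8% were also called higher in the cytoplasm and 1.7% lower there, and of those lower in the nucleus 66.4% were lower in the cytoplasm and 1.7% higher.

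**Figure D1:**
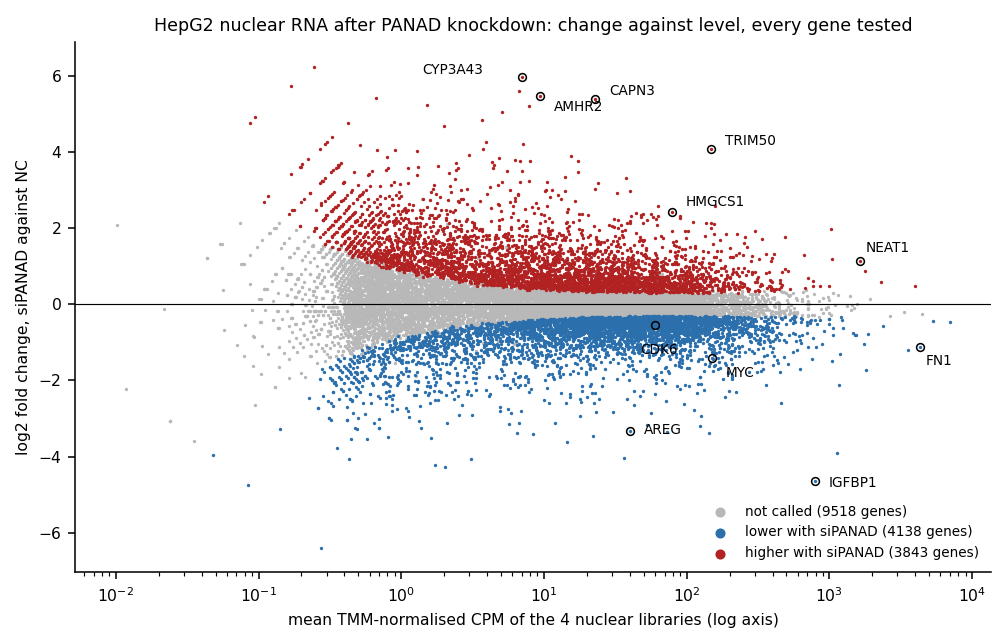
Each point is 1 of the 17499 genes tested, placed by its mean TMM-normalised CPM in the 4 HepG2 nuclear libraries (horizontal, log axis) and its log2 fold change with siPANAD (vertical); red points are called higher, blue points lower and grey points not called. Most genes lie near 0, with IGFBP1 (-4.65) far below 0 at a high level and CYP3A43 (5.96) and AMHR2 (5.48) far above 0 at low ones.

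Genes of lncRNAs were higher more often than lower, and protein-coding genes lower more often than higher. Of 2693 lncRNA genes tested, 25.8% were higher and 12.1% lower with a median log2 fold change of 0.25, against 22.0% and 27.6% with a median of -0.07 for 12877 protein-coding genes. The share of all nuclear counts that fell on lncRNA genes was 2.06% and 1.99% in NC and 2.54% and 2.47% with siPANAD. Part of this rise came from 1 lncRNA, NEAT1, at 1168 and 1344 CPM before normalisation in NC and 3274 and 2875 with siPANAD. Long protein-coding genes were lower more often than short ones. In 5 bins of equal size by gene length, 21.7% of the shortest and 35.0% of the longest genes were called lower, and 25.9% and 15.3% higher. The same bins had medians of 0.03 and -0.18. No test was made of these class differences.

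Among genes of at least 5 CPM in the higher group, IGFBP1 had the deepest fall. IGFBP1, a secreted insulin-like growth factor binding protein of the liver (chromosome 7, 45888357 to 45893668, GRCh38), had 1391 and 1674 CPM in NC and 49.2 and 72.7 with siPANAD, 25.1-fold less (log2 fold change -4.65, SE 0.21, adjusted p = 6.8e-13). SLC12A3, the thiazide-sensitive sodium chloride cotransporter, had 5.66 and 5.97 CPM in NC and 0.244 and 0.449 with siPANAD (-4.06, SE 0.32). TNS4, a tensin of cell adhesion sites, had 71.8 and 65.3 CPM in NC and 4.26 and 4.09 with siPANAD (-4.03, SE 0.18). In all 3 genes each siPANAD library lay far below both NC libraries.

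Genes of the matrix and of growth factor signalling followed. INHBB, a subunit of activin, went from 37.9 and 42.7 CPM to 3.61 and 3.64 (-3.47, SE 0.15). AKAP12, a scaffold that anchors protein kinase A and C, went from 284 and 243 to 26.0 and 24.4 CPM (-3.38, SE 0.14). LOX, which cross-links collagen, went from 141 and 125 to 12.6 and 13.5 CPM (-3.35, SE 0.16), and its relative LOXL2 from 21.6 and 21.4 to 2.19 and 2.79 (-3.11, SE 0.18). CEMIP, needed for the breakdown of hyaluronan, went from 216 and 232 to 23.7 and 25.1 CPM (-3.20, SE 0.13). The EGF receptor ligand AREG went from 79.2 and 66.8 to 7.31 and 7.32 CPM (-3.32, SE 0.15), and the PDGF receptor PDGFRB from 10.3 and 10.1 to 1.096 and 1.21 (-3.14, SE 0.22). MAB21L3, FILIP1L and GPRC5A were among the 15 genes together with the lncRNA LINC-PINT, and their log2 fold changes ran from -3.62 to -3.12. LINC-PINT, at 24.2 and 29.5 CPM in NC and 2.68 and 1.66 with siPANAD (-3.62, SE 0.22), shares 31.6% of its exonic bases with another gene on the same strand, so its count is uncertain.

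The largest rises came from transcripts that were close to absent in the control nuclei. CYP3A43, a cytochrome P450 of the CYP3A cluster (chromosome 7, 99828013 to 99866102), had 0.197 and 0.235 CPM in NC and 14.2 and 13.5 with siPANAD (log2 fold change 5.96, SE 0.32, adjusted p = 2.2e-13). PRR15L, a proline-rich protein, went from 0.148 and 0.376 to 14.5 and 11.6 CPM (5.59, SE 0.29). AMHR2, the receptor of anti-Müllerian hormone, went from 0.394 and 0.423 to 17.9 and 19.1 CPM (5.48, SE 0.26). Their NC values are close to the limit a count of 0 allows, so the size of these folds is poorly known, although both siPANAD libraries were far above that limit in all 3 genes.

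Other genes among the 15 largest rises began from higher levels. TRIM50, a ubiquitin ligase (chromosome 7, 73312539 to 73328082), went from 15.3 and 17.8 CPM to 276 and 283, a 16.9-fold rise (log2 fold change 4.08, SE 0.14, adjusted p = 1.6e-16). FER1L5, a ferlin, went from 1.67 and 2.21 to 28.5 and 29.6 CPM (3.90, SE 0.20), and CAPN3, a calpain protease, from 1.08 and 1.03 to 47.9 and 41.5 (5.39, SE 0.21), though 57.1% of the exonic bases of CAPN3 are shared with another gene on the same strand. Several of the 15 are genes of differentiated liver. IGFALS, which carries insulin-like growth factors in plasma, went from 2.12 and 2.59 to 32.8 and 31.9 CPM (3.77, SE 0.17), GNMT, the glycine methyltransferase, from 0.738 and 0.517 to 9.06 and 9.16 (3.85, SE 0.24), and ITIH1, an inter-alpha-trypsin inhibitor chain, from 0.64 and 1.03 to 10.7 and 12.8 (3.79, SE 0.25). IGFBP1 and IGFALS, both carriers of insulin-like growth factors, thus moved in opposite directions. TREH, PDZK1IP1, PLA2G4D, ERP27 and the lncRNAs LINC00479 and LINC00494 rose by 3.77 to 5.06 on the log2 scale. In NC the levels of TREH, PDZK1IP1, LINC00479 and LINC00494 (0.188 to 0.492 CPM) were close to those of CYP3A43, so the size of their folds is poorly known too, and another gene covers 22.7% of the exonic bases of TREH on the other strand.

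**Figure D2:**
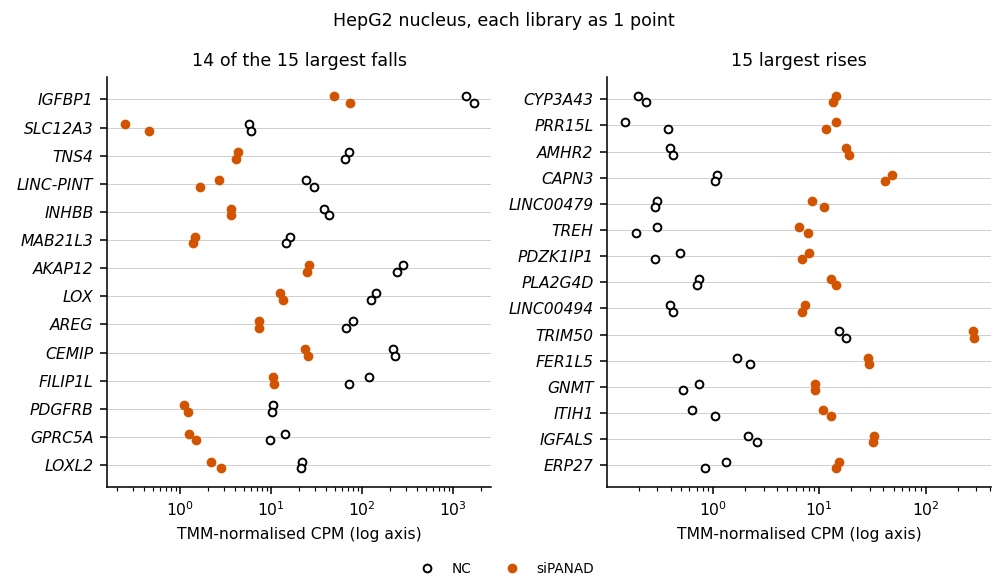
TMM-normalised CPM (log axis) of 14 of the 15 genes with the largest falls (left) and the 15 with the largest rises (right) among called genes of at least 5 CPM in the higher group, with 1 point per library, open for NC and filled for siPANAD. In every gene shown the 2 NC points and the 2 siPANAD points form separate pairs, as the choice of genes required, and IGFBP1 moves from 1391 and 1674 to 49.2 and 72.7 CPM.

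By amount of RNA rather than by fold, other genes led. FN1, fibronectin, lost the most, from 5768 and 6061 CPM to 2645 and 2742 (-1.14, SE 0.15). APOB, the protein of very low density lipoprotein, went from 5677 and 4284 to 2221 and 2099 CPM (-1.21, SE 0.16), and SPTBN1, a spectrin, from 2844 and 2704 to 837 and 853 (-1.72, SE 0.14). RHBG, an ammonium transporter, rose from 383 and 455 to 1604 and 1672 CPM (1.97, SE 0.14, adjusted p = 4.8e-11), and DHRS2, a short-chain dehydrogenase, from 1209 and 1307 to 2260.3 and 2373 (0.88, SE 0.14, adjusted p = 1.1e-05). Changes of 3 abundant plasma protein mRNAs were small, and their calls were lost without single libraries. ALB, albumin, had 7909 and 8183 CPM in NC and 5646 and 6092 with siPANAD (-0.46, SE 0.15, adjusted p = 0.015), a call lost without siPANAD replicate 1 (-0.40, adjusted p = 0.175) or 2 (-0.52, 0.0707). C3 (0.48, SE 0.16, adjusted p = 0.0158) was not called without NC replicate 2 (0.43, adjusted p = 0.08) or siPANAD replicate 1 (0.53, 0.0552) or 2 (0.41, 0.143). APOE (0.59, SE 0.16, adjusted p = 0.0044) was not called without NC replicate 1 (0.38, adjusted p = 0.105) or siPANAD replicate 1 (0.54, 0.0553).

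Genes that build ribosomes were lower almost throughout. Ribosome biogenesis takes place largely in the nucleolus, where ribosomal RNA is made by RNA polymerase I, modified, cut and packed with proteins, and many of its genes are targets of the transcription factor MYC, which binds the E-box sequence CACGTG. MYC had 236 and 199.9 CPM in NC and 72.8 and 91.3 with siPANAD, 2.66-fold less (log2 fold change -1.41, SE 0.15, adjusted p = 2.3e-08). Of 68 tested genes in the list of MYC and its partners and of ribosome biogenesis factors, 59 were lower, 1 was higher and 8 did not pass the test, with a median log2 fold change of -0.79 against -0.03 over all genes. DKC1, the pseudouridine synthase dyskerin, went from 163 and 154 to 57.1 and 58.5 CPM (-1.46, SE 0.14). GNL3, the nucleolar GTPase nucleostemin, went from 316 and 282 to 103 and 118 CPM (-1.44, SE 0.13), and the RNA helicase DDX21 from 160.3 and 134 to 56.0 and 54.1 (-1.42, SE 0.14). The 1 member that rose was MXD4, which competes with MYC for its partner MAX, from 42.8 and 51.2 to 75.1 and 77.7 CPM (0.70, SE 0.13, adjusted p = 7.7e-05). Over the 8 fits that each left out 1 HepG2 library the number of lower members ran from 52 to 60.

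The machinery that uses and feeds ribosome synthesis was lower too. Among 37 subunits and factors of RNA polymerases I and III, 17 were lower and 1, POLR1D, was higher with a median of -0.31 (higher members numbered 0 to 3 over the same 8 fits). POLR3K, a subunit of RNA polymerase III, had 17.4 and 27.0 CPM in NC and 9.54 and 9.88 with siPANAD (-1.20, SE 0.17), and POLR1E of RNA polymerase I 19.5 and 19.8 in NC against 10.1 and 10.96 (-0.90, SE 0.14). Aminoacyl-tRNA synthetases, which load tRNAs with amino acids, fell in 18 of 23 cases, with 1 higher and a median of -0.72. The glycyl-tRNA synthetase GARS1 went from 328 and 272 to 108 and 115 CPM (-1.43, SE 0.13), VARS1 from 295 and 371 to 147 and 166 (-1.09, SE 0.14) and CARS1 from 126 and 134 to 65.2 and 67.7 (-0.97, SE 0.12). AIMP1, a scaffold of the multisynthetase complex, was the member that rose, from 97.4 and 84.8 to 139.7 and 149 CPM (0.67, SE 0.13, adjusted p = 1.1e-04). Ribosomal protein genes themselves behaved otherwise and are described with the comparison of fractions.

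The E-box was found in many promoters of the lowered list, and these sequences are shown because MYC and the list moved together. The promoters are RefSeq sequences on GRCh38.p14, from 250 bases before to 50 bases after the start of transcription, and the search covered both strands, which read alike for CACGTG. Of the 50 lowered members with a promoter sequence, 21 (42.0%) held it, as did 2 of 7 members that did not pass the test and MXD4, which rose. The share over all 58 members was 41.4%, against 10.1% of 11429 tested genes and 7.4% of all 27305 promoters. Members that were not lowered thus also carry it, and a match is a description of letters, not of a bound site. In 5 examples, printed 5′ to 3′ on the gene's strand with the E-box in capitals, it lay upstream of the start.
UTP20 (chr12:101280065-101280104, plus strand): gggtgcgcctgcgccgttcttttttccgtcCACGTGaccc
NAT10 (chr11:34105584-34105628, plus strand): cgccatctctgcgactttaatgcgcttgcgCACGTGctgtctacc
UTP18 (chr17:51260427-51260492, plus strand): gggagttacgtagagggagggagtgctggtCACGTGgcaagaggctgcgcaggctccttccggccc
IMP4 (chr2:130342664-130342729, plus strand): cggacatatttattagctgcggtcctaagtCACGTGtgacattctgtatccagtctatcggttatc
MDN1 (chr6:89819914-89819979, minus strand): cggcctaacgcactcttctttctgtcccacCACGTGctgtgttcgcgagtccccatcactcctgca
UTP20, of the small subunit processome, had 44.3 and 40.9 CPM in NC and 19.2 and 19.6 with siPANAD (-1.14, SE 0.14). NAT10, which acetylates ribosomal RNA, had 149.9 and 142 in NC against 62.5 and 62.5 CPM (-1.22, SE 0.12). The remodelling ATPase MDN1 of the large subunit (-0.74, SE 0.12), the processome component IMP4 (-0.72, SE 0.13) and UTP18 (-0.47, SE 0.14) fell less.

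**Figure D3:**
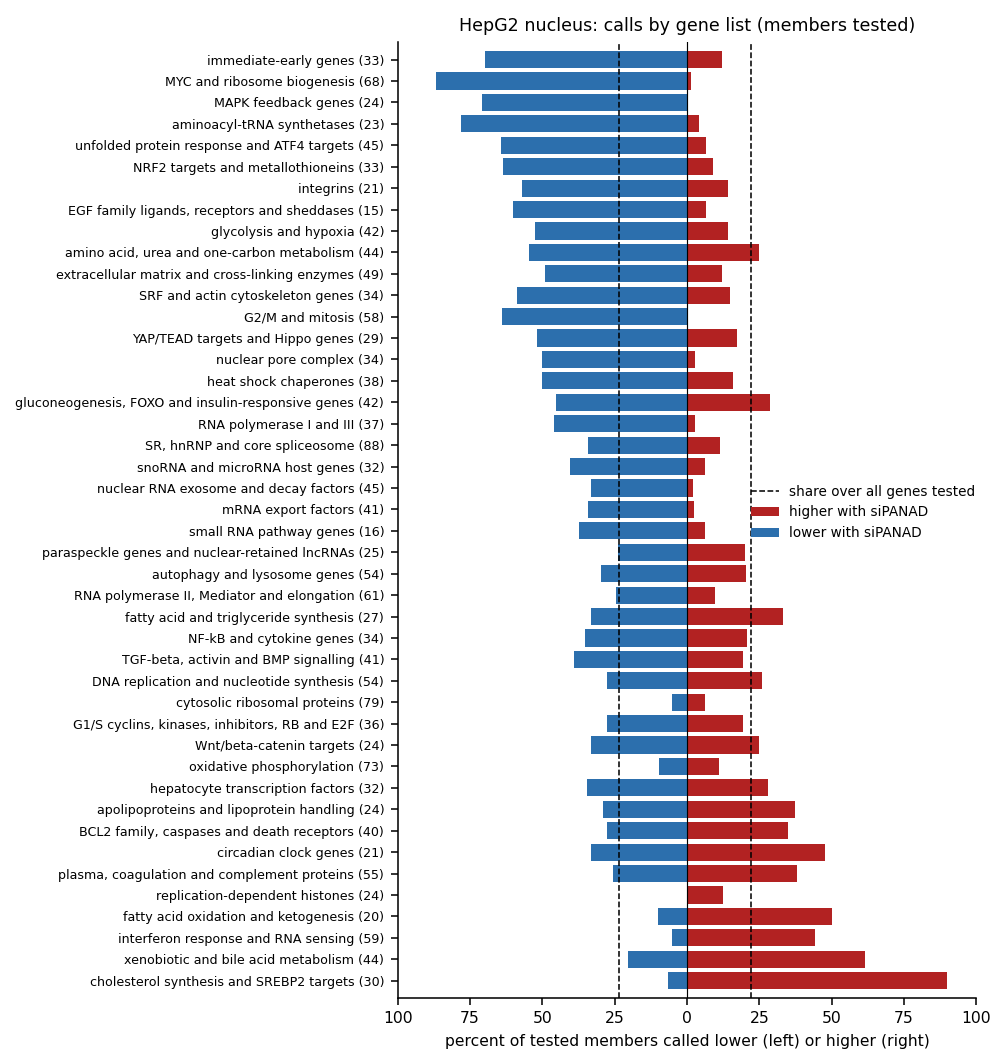
For gene lists with at least 10 tested members (number in brackets), the bars give the percent of tested members called lower (left, blue) and higher (right, red) with siPANAD in the HepG2 nucleus, ordered by the median log2 fold change. The dashed lines mark the shares over all genes tested, 23.6% and 22.0%, and the cholesterol list (90.0% higher) and the ribosome biogenesis list (86.8% lower) extend far beyond them on opposite sides.

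Nearly all tested genes of cholesterol synthesis rose. SREBP2, encoded by SREBF2, is the transcription factor that drives them when sterols are scarce. Of 30 tested members, 27 were higher, 2 lower and 1 (MYLIP) did not pass, with a median of 1.14. HMGCS1, which makes HMG-CoA (chromosome 5, 43289395 to 43313512), had 25.1 and 24.2 CPM in NC and 149 and 115 with siPANAD, a 5.37-fold rise (log2 fold change 2.42, SE 0.16, adjusted p = 1.5e-11). HSD17B7 of the late pathway went from 11.5 and 11.8 to 56.8 and 51.3 CPM (2.21, SE 0.14), and LSS, lanosterol synthase, from 51.0 and 58.3 to 248 and 234 (2.14, SE 0.13). The squalene enzymes rose less, FDFT1 from 47.8 and 44.9 to 144 and 118 CPM (1.497, SE 0.14) and SQLE from 33.5 and 29.6 to 64.7 and 58.9 (0.97, SE 0.13).

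Of the regulators, SREBF2 had 168 and 174 CPM in NC and 231 and 224 with siPANAD (0.41, SE 0.13, adjusted p = 0.00997), a call lost without NC replicate 1 (0.0564) and siPANAD replicate 1 (0.0831) or 2 (0.058). SREBF1, which acts more on fatty acid synthesis, had 214 and 267 in NC against 164 and 175 CPM (-0.51, SE 0.14, adjusted p = 0.00394), and lost its call without NC replicate 2 (0.0669) or siPANAD replicate 1 (0.052). The core of the sterol response element, CACCCCAC, was present in 1 of 22 promoters of members that rose (4.5%) and in 2.7% of tested genes' promoters.

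Genes of fatty acid and triglyceride synthesis split evenly, with 9 of 27 higher and 9 lower. ACSS2, which makes acetyl-CoA from acetate, went from 58.6 and 59.6 to 239 and 236 CPM (2.01, SE 0.13), and DGAT1, which completes triglycerides, from 221 and 226 to 696 and 814 (1.76, SE 0.14). ACSL3, which activates fatty acids for storage, fell from 259 and 215 to 72.0 and 69.4 CPM (-1.74, SE 0.13), and so did the lipid droplet protein PLIN2, from 242 and 257 to 87.8 and 85.6 (-1.52, SE 0.13). Fatty acid oxidation had 10 of 20 members higher and 2, ACADVL and FGF21, lower (1 lower without NC replicate 2 or siPANAD replicate 1), with a median of 0.33. EHHADH, a peroxisomal enzyme of that pathway, rose from 8.47 and 9.31 to 21 and 19.1 CPM (1.17, SE 0.15). Its regulator PPARA had 25.6 and 26.0 CPM in NC and 36.9 and 36.1 with siPANAD (0.50, SE 0.12, adjusted p = 0.00199).

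Many enzymes that hepatocytes use on drugs and bile acids were higher. In the list of xenobiotic and bile acid metabolism 27 of 44 genes rose and 9 fell, with a median of 0.89, and in the cytochrome P450 family alone 21 of 30 rose and 5 fell, namely CYP1A1, CYP24A1, CYP26B1, CYP2B6 and CYP2S1. CYP3A5 had 31.7 and 30.3 CPM in NC and 153 and 145 with siPANAD (2.27, SE 0.13), and CYP4F2, an omega-hydroxylase, 14.6 and 13.7 in NC against 72.0 and 76.4 (2.39, SE 0.14). The glutathione transferase GSTA2 went from 2.85 and 2.16 to 28.3 and 23.0 CPM (3.35, SE 0.18). Near-identical copies exist for genes of the CYP3A, CYP4F and GSTA families, and how reads shared between copies were counted is not given in the sources used here. UDP-glucuronosyltransferases went the other way, with 5 of 9 lower (UGT1A1, UGT1A6, UGT1A7, UGT1A9 and UGT2B4) and UGT2B10 higher, although the UGT1A genes share exons and their reads cannot be assigned to one of them with certainty. The bile canaliculus pump ABCC2 fell from 2407 and 2297 to 1116 and 1154 CPM (-1.05, SE 0.14).

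Secreted liver proteins and their regulators did not move as one group. Of the 14 hepatocyte markers 7 were lower and 1, APOA1, was higher (2 lower without either siPANAD library and 4 without NC replicate 2), and their summed level before normalisation was 38133 and 36427 CPM in NC and 31636 and 32263 CPM with siPANAD. Of 55 plasma, coagulation and complement genes 21 were higher and 14 lower. CP, ceruloplasmin, fell from 43.0 and 39.2 to 6.74 and 7.86 CPM (-2.49, SE 0.14), and the fibrinogen chain FGB from 103 and 85.8 to 39.3 and 41.3 (-1.23, SE 0.13). Apolipoprotein and lipoprotein genes had 9 of 24 higher and 7 lower. APOA5, which speeds the clearance of triglycerides, rose from 57.2 and 78.5 to 258 and 228 CPM (1.84, SE 0.14), and APOC3, which slows it, from 105 and 144 to 392 and 375 (1.62, SE 0.16). MTTP, which loads lipid onto the APOB protein, fell from 62.7 and 60.1 to 23.2 and 20.7 CPM (-1.48, SE 0.13), as APOB did.

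Among 32 transcription factors of hepatocytes 9 were higher and 11 lower (7 lower without NC replicate 1 and 6 without siPANAD replicate 1). CREB3L3, a membrane-bound factor of lipid metabolism, rose from 23.1 and 19.4 to 65.8 and 78.9 CPM (1.77, SE 0.15), and NR1I2, the drug sensor PXR, from 72.0 and 79.3 to 147 and 143 (0.94, SE 0.12). NR0B2, the repressor SHP of bile acid synthesis, fell from 129 and 133 to 72.2 and 77.8 CPM (-0.81, SE 0.13, adjusted p = 1.0e-05). HNF4A had 388 and 403 CPM in NC and 310.1 and 317 with siPANAD (-0.33, SE 0.13, adjusted p = 0.0336), and this call was lost without NC replicate 2 (0.0789), siPANAD replicate 1 (0.183) or 2 (0.123), either cytoplasmic siPANAD library (0.0947 and 0.0946), with no filter on low counts (0.0803) and with a minimum count of 50 (0.0603).

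Early response genes and the feedback inhibitors of MAP kinase signalling were lower. Growth factors that bind EGF receptors activate the RAS, RAF, MEK and ERK cascade, which switches on immediate-early genes within minutes and later the Sprouty and dual-specificity phosphatase genes that dampen it. Of 33 immediate-early genes 23 were lower and 4 (ARC, BTG2, JUND and ZFP36L2) higher, with a median of -1.07. EGR1, a zinc finger factor, had 45.1 and 35.9 CPM in NC and 5.12 and 6.29 with siPANAD, 7.11-fold less (log2 fold change -2.83, SE 0.16, adjusted p = 4.3e-13), IER3 341 and 282 in NC against 53.04 and 61.9 (-2.44, SE 0.17) and KLF5 5.12 and 5.27 in NC against 0.893 and 1.08 (-2.40, SE 0.25). Another gene overlaps 26.5% of the exonic bases of IER3 on the other strand. In the feedback list 17 of 24 genes were lower and 0 higher, with a median of -0.74. ERRFI1, an inhibitor of the EGF receptor, went from 807 and 770.1 to 124 and 138 CPM (-2.59, SE 0.15), and SPRY4 from 302 and 273 to 72.3 and 74.5 (-1.97, SE 0.13).

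The ligands upstream fell as well. Of 15 EGF family ligands, receptors and sheddases 9 were lower and 1 higher, in each of the 8 fits that left out 1 library. Epiregulin, EREG, went from 59.8 and 47.2 to 7.92 and 7.05 CPM (-2.83, SE 0.16) and HBEGF from 6.35 and 6.58 to 1.62 and 1.08 (-2.24, SE 0.24), beside the fall of AREG. The receptor ERBB2 was the 1 member that rose, from 146 and 162 to 234 and 259 CPM (0.68, SE 0.14, adjusted p = 2.2e-04). Cytokine genes that fell included IL11, which went from 27.2 and 35.1 to 5.93 and 4.63 CPM (-2.56, SE 0.17). The chemokine CCL20 went from 73.4 and 84.7 to 14.9 and 14.7 (-2.42, SE 0.14). The list of NF-kB and cytokine genes as a whole moved both ways, with 12 of 34 lower, 7 higher and a median of -0.06. IL11 and CCL20 thus do not stand for that list.

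Adhesion, matrix and cytoskeletal genes were lower in 49.0% to 58.8% of cases, against 23.6% of all genes. The integrin list holds integrins, the receptors that tie cells to the matrix, and cytoplasmic proteins of adhesion sites such as FERMT2 and VCL. In it 12 of 21 genes were lower and 3 (FERMT2, ITGB2 and ITGB3) higher. Extracellular matrix and cross-linking genes had 24 of 49 lower and 6 higher. The list of actin and SRF genes had 20 of 34 lower and 5 (ACTA2, KRT80, MYL9, TAGLN and TPM1) higher. It also holds tubulins and keratins, with TUBB6 and KRT18 among its lower members. The 6 matrix genes that rose were 3 without NC replicate 1 and 2 without either siPANAD library. ITGA2, the collagen-binding alpha chain, went from 234 and 211 to 31.4 and 27.2 CPM (-2.92, SE 0.14), and its partner ITGB1 from 364 and 292 to 91.4 and 88.2 (-1.87, SE 0.15). LAMA3, a laminin chain, rose from 4.43 and 4.42 to 25.3 and 24.7 CPM (2.50, SE 0.16). The tubulin TUBB6 fell from 69.6 and 71.2 to 13.9 and 15.1 CPM (-2.28, SE 0.15), with 20.3% of its exonic bases opposite another gene.

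Targets of YAP, Wnt and TGF-beta signalling were mixed. CCN2, a secreted matrix protein and YAP target, went from 56.8 and 62.2 to 15.4 and 19.6 CPM (-1.76, SE 0.14) in a list with 15 of 29 lower and 5 (AJUBA, AMOTL2, ARHGEF17, GADD45B and LATS2) higher (3 without siPANAD replicate 2). YAP1 itself had 88.7 and 95.6 CPM in NC and 101 and 85.3 with siPANAD and was not called (0.02, SE 0.13, adjusted p = 0.93), with values on both sides of NC. DKK1, a Wnt antagonist, went from 202 and 192 to 35.5 and 42.7 CPM (-2.33, SE 0.14) in a Wnt list with 8 of 24 lower and 6 higher (5 and 3 without siPANAD replicate 1). FST, which binds activin, went from 65.7 and 64.8 to 11.7 and 11.5 CPM (-2.49, SE 0.13), so that both an activin subunit and its antagonist were lower. The TGF-beta, activin and BMP list had 16 of 41 lower and 8 higher (5 higher without either NC library and 3 without siPANAD replicate 2).

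Cell division genes were lower without exception in direction among those called. In the list of G2/M and mitosis 37 of 58 genes were lower and 0 higher, with a median of -0.44, and 24 were lower without NC replicate 1. CENPF, a kinetochore protein, had 248 and 184 CPM in NC and 70.2 and 78.3 with siPANAD (-1.54, SE 0.14), and the proliferation marker MKI67 309 and 234 in NC against 140.3 and 154 (-0.88, SE 0.14). In both genes NC replicate 1 was the highest of the 4 libraries.

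Genes of G1 and of DNA replication moved both ways. In the G1/S list 19.4% were higher and 27.8% lower, against 22.0% and 23.6% of all genes tested. CDK6, the G1 kinase named in the series title (chromosome 7, 92604921 to 92836594), had 73.1 and 68.7 CPM in NC and 49.5 and 46.9 with siPANAD (-0.56, SE 0.12, adjusted p = 5.2e-04), a 1.47-fold fall that no single library decided. CDKN1A, the inhibitor p21, rose from 115 and 133 to 241 and 253 CPM (0.99, SE 0.14) and CCNG2, an atypical cyclin, from 4.97 and 5.08 to 11.7 and 12.04 (1.24, SE 0.17). E2F3, an activator of S phase genes, fell from 47.6 and 51.5 to 32.6 and 33.6 CPM (-0.58, SE 0.13, adjusted p = 8.4e-04). The G1/S list had 7 of 36 higher and 10 lower (4 higher without siPANAD replicate 1, and 12 without cytoplasmic NC replicate 2). For DNA replication 14 of 54 were higher and 15 lower, shares near the background, and leaving out single nuclear libraries gave 8 or 9 higher, and 7 lower without siPANAD replicate 1. GINS2 of the replicative helicase fell from 13.9 and 14.2 to 7.07 and 6.96 CPM (-1.0, SE 0.14), while DNA ligase LIG1 rose from 60.7 and 71.7 to 113 and 112 (0.76, SE 0.12, adjusted p = 1.8e-05).

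DDB2, a DNA damage recognition factor, went from 58.8 and 61.5 to 201 and 215 CPM (1.79, SE 0.13) and the mitochondrial reductase FDXR from 98.0 and 135 to 398 and 389 (1.76, SE 0.15). PERP, a desmosomal protein, fell from 74.8 and 72.7 to 12.6 and 10.96 CPM (-2.64, SE 0.14).

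Genes of programmed cell death included a pair of proapoptotic BH3-only factors that rose and an antiapoptotic factor that fell. BMF went from 19.8 and 17.8 to 88.9 and 84.3 CPM (2.202, SE 0.13) and BBC3, also known as PUMA, from 14.5 and 21.4 to 50.9 and 44.6 (1.41, SE 0.15). MCL1, an antiapoptotic member of the BCL2 family, went from 202 and 203 to 115 and 116 CPM (-0.81, SE 0.13, adjusted p = 1.1e-05). The whole list of BCL2 family members, caspases and death receptors had 14 of 40 higher and 11 lower. Of 24 tested replication-dependent histone genes, whose mRNAs mostly lack a poly(A) tail, 3 (H2BC12, H2BC21 and H3C10) were higher and 0 lower. H2BC12 went from 2.85 and 3.06 to 9.79 and 10.96 CPM (1.81, SE 0.18), and near-identical histone copies make such counts uncertain.

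**Figure D4:**
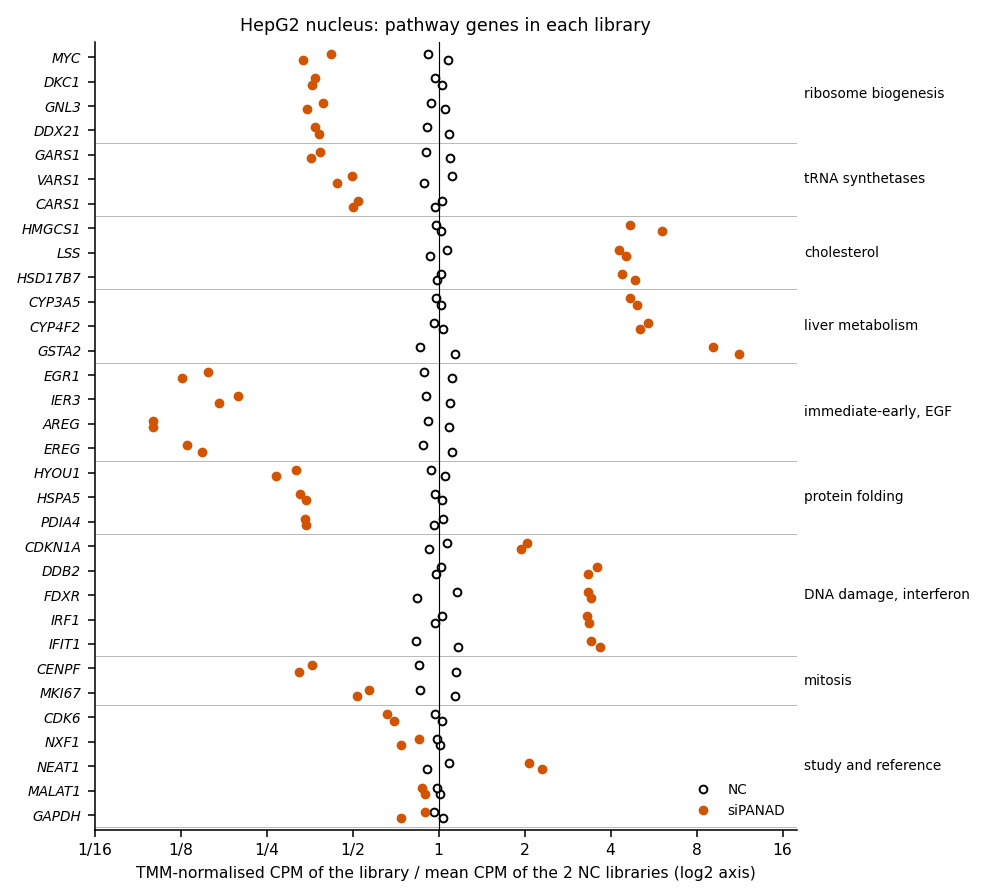
TMM-normalised CPM of each nuclear library divided by the mean of the 2 NC libraries (log2 axis), with 1 point per library, open for NC and filled for siPANAD, for genes grouped by pathway. The siPANAD points lie left of 1 for MYC, EGR1 and HSPA5 and right of 1 for HMGCS1, CYP3A5 and DDB2, while those of MALAT1 and GAPDH stay close to 1.

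Part of the interferon response was higher. These genes are switched on when cells sense viral RNA or interferon, through factors that bind the interferon-stimulated response element. Of 59 tested members 26 were higher, 3 (OAS1 and PARP12 among them) lower (5 without cytoplasmic NC replicate 1) and 30 not called, with a median of 0.39. TRIM22 had 6.45 and 6.11 CPM in NC and 30.4 and 27.9 with siPANAD (2.21, SE 0.16), and the factor IRF1 15.2 and 16.04 in NC against 52.5 and 51.6 (1.74, SE 0.13), with 22% of the exonic bases of IRF1 opposite another gene.

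The letters TTTCNNTTT, part of that element, were common in promoters of the list whether or not the gene changed. They were found on either strand in 14 of 22 promoters of members that rose (63.6%) and in 14 of 23 promoters of members that were not called (60.9%), against 6.9% of tested genes and 10.6% of all promoters. In 3 members that rose, printed with the matches in capitals (AAANNGAAA where the match is on the other strand), the upstream sequence was as follows.
IFIT1 (chr10:89392416-89392558, plus strand): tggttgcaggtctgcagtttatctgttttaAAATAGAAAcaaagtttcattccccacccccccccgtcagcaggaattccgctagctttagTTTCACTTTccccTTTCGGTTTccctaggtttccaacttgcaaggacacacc
IFIT3 (chr10:89327811-89327913, plus strand): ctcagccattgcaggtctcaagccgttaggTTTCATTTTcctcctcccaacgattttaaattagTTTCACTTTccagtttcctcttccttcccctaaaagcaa
ISG15 (chr1:1013355-1013429, plus strand): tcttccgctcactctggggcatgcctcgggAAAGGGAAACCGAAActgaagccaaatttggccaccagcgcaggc
IFIT1, which binds viral RNA caps, went from 2.36 and 1.69 to 7.43 and 6.92 CPM (1.82, SE 0.22), and its neighbour IFIT3 from 3.15 and 3.34 to 9.30 and 9.79 (1.55, SE 0.19). ISG15, a ubiquitin-like modifier, went from 8.76 and 17.2 to 34.1 and 29.6 CPM (1.29, SE 0.23, adjusted p = 8.8e-04), with the NC replicates almost 2-fold apart.

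Chaperones of the endoplasmic reticulum were lower. The unfolded protein response raises them when folding capacity is short, by way of the sensors IRE1, PERK and ATF6. Of 45 genes in that list 29 were lower and 3 (ATF5, CANX and ERO1B) higher, with a median of -0.63. HYOU1 had 504 and 451 CPM in NC and 128 and 152 with siPANAD (-1.77, SE 0.14), HSPA5, the chaperone BiP, 785 and 744 in NC against 262 and 251 (-1.57, SE 0.13) and the disulfide isomerase PDIA4 622 and 671 in NC against 221 and 221 (-1.55, SE 0.13). The effector XBP1 fell less, from 268 and 238 to 163 and 182 CPM (-0.55, SE 0.13, adjusted p = 0.00145). Calnexin, CANX, rose from 199.6 and 187 to 331 and 325 CPM (0.76, SE 0.13, adjusted p = 2.3e-05), against the direction of the other chaperones named. The element TGACGTGG was in 1 of 26 promoters of lowered members, that of HYOU1, and in 0.9% of tested genes.

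Cytosolic and mitochondrial chaperones were less uniform, with 19 of 38 lower (10 without siPANAD replicate 2) and 6 higher. HSPA9 of the mitochondrion fell from 564 and 543 to 253 and 246 CPM (-1.15, SE 0.13), HSF1, the heat shock factor, from 134 and 134 to 83.2 and 92.7 (-0.60, SE 0.14, adjusted p = 6.8e-04), and the inducible HSPA1A rose from 20.3 and 21.4 to 38.0 and 35.0 (0.81, SE 0.13, adjusted p = 1.8e-05), although it has a near-identical neighbour, HSPA1B. Antioxidant genes driven by NRF2 and metallothioneins had 21 of 33 lower and 3 (GPX2 and HMOX1 among them) higher (1 higher without NC replicate 2 or siPANAD replicate 2), with a median of -0.58. NRF2 is encoded by NFE2L2, which went from 249 and 198 to 126 and 121 CPM (-0.86, SE 0.14, adjusted p = 1.3e-05). The metallothionein MT2A went from 167 and 173 to 35.7 and 41.6 CPM (-2.14, SE 0.17) and the reductase AKR1B10 from 128 and 137 to 49.1 and 42.8 (-1.52, SE 0.13). HMOX1, the haem oxygenase and a classical NRF2 target, rose instead, from 52.1 and 55.6 to 108 and 116 CPM (1.05, SE 0.15).

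Glucose uptake and the first step of glycolysis were among the deepest falls of metabolic genes. The glucose transporter SLC2A1 went from 1873 and 1944 to 431 and 449.7 CPM (-2.12, SE 0.16), SLC2A3 from 588 and 576 to 126 and 142 (-2.12, SE 0.13) and hexokinase HK2 from 209 and 227 to 45.2 and 45.7 (-2.26, SE 0.13). The liver form of pyruvate kinase, PKLR, rose from 15.9 and 16.9 to 32.1 and 33.1 CPM (0.99, SE 0.13). In all, 22 of 42 glycolysis and hypoxia genes were lower and 6 higher (3 higher without NC replicate 1 or siPANAD replicate 2). GAPDH, often used as a reference gene, had 890.0 and 825 CPM in NC and 634 and 771 with siPANAD and was not called (-0.29, SE 0.16, adjusted p = 0.155), but was without cytoplasmic NC replicate 1 (-0.30, adjusted p = 0.0315).

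Amino acid, urea and one-carbon genes fell in 24 of 44 cases and rose in 11. CTH, which makes cysteine, went from 29.4 and 31.6 to 6.66 and 5.93 CPM (-2.27, SE 0.14), the arginine transporter SLC7A1 from 206 and 187 to 47.6 and 56.7 (-1.91, SE 0.14) and the mitochondrial folate enzyme ALDH1L2 from 72.2 and 52.7 to 16.5 and 15.2 (-1.98, SE 0.15). The alanine aminotransferase GPT rose from 13.9 and 21.8 to 41.6 and 46.3 CPM (1.30, SE 0.16). Insulin and FOXO regulated genes had 19 of 42 lower and 12 higher. IGFBP4, another carrier of insulin-like growth factors, went from 111 and 131 to 18.3 and 23.6 CPM (-2.54, SE 0.15), and the pseudokinase TRIB1 from 169 and 150.1 to 34.9 and 38.3 (-2.12, SE 0.13). PIK3IP1, an inhibitor of PI3 kinase, rose from 4.28 and 4.89 to 25.2 and 24.1 CPM (2.42, SE 0.16).

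Among 21 circadian clock genes 10 were higher and 7 lower. The clock output factor DBP rose from 2.31 and 3.01 to 10.8 and 10.7 CPM (2.01, SE 0.18), while the repressor BHLHE40 fell from 191 and 198 to 40.8 and 49.96 (-2.10, SE 0.13). TFEB, the master regulator of lysosome genes, rose from 26.7 and 30.7 to 53.4 and 57.0 CPM (0.94, SE 0.13). Autophagy and lysosome genes were higher in 20.4% and lower in 29.6% of cases, against 22.0% and 23.6% of all genes tested. The autophagy and lysosome list had 11 of 54 higher and 16 lower, with 6 to 8 higher over the fits that left out 1 nuclear library and 10 lower without siPANAD replicate 2.

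Genes of the export route itself were lower rather than higher where they were called. In the list of mRNA export factors 14 of 41 were lower and 1, FYTTD1, was higher, with a median of -0.19. Without NC replicate 1 there were 9 lower and without siPANAD replicate 1 there were 8, and FYTTD1 was not called without NC replicate 2 or siPANAD replicate 1. DDX19A, a helicase at the cytoplasmic side of the pore, went from 28.8 and 31.9 to 14.7 and 15.8 CPM (-0.99, SE 0.14), and 23.8% of its exonic bases are shared with another gene. The cap-binding protein EIF4E went from 26.4 and 24.5 to 14.3 and 13.3 CPM (-0.88, SE 0.13) and the tRNA exporter XPOT from 229 and 214 to 134 and 128 (-0.76, SE 0.13, adjusted p = 3.6e-05). NXF1 had 204 and 199 CPM in NC and 149 and 173 with siPANAD (-0.33, SE 0.12, adjusted p = 0.0341), a call lost without NC replicate 1 (0.0794), siPANAD replicate 1 (0.329) or either cytoplasmic siPANAD library (0.0957 and 0.0952), with no filter (0.0895) and with a minimum count of 50 (0.0642).

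Nuclear pore genes had 17 of 34 lower and 1, AAAS, higher (0 higher without NC replicate 1 or 2 or siPANAD replicate 2), with a median of -0.38. AHCTF1, which starts pore assembly on chromatin, went from 117 and 95.6 to 63.6 and 59.9 CPM (-0.78, SE 0.13, adjusted p = 2.0e-05), and TPR of the nuclear basket from 215 and 171 to 108 and 121 (-0.75, SE 0.13, adjusted p = 4.4e-05). Of 88 SR, hnRNP and core spliceosome genes 30 were lower and 10 higher. Fewer were called lower without either siPANAD library and fewer higher without any 1 nuclear library, and both held over all genes tested too. HNRNPR, an RNA-binding protein, went from 148 and 139 to 76.1 and 76.8 CPM (-0.91, SE 0.12), while SNRNP70, the U1 snRNP protein that recognises the 5′ splice site, rose from 339 and 382 to 635 and 680.2 (0.87, SE 0.14). Nuclear exosome and decay factors had 15 of 45 lower (9 without siPANAD replicate 1) and 1 higher, the deadenylase subunit PAN2, from 73.3 and 72.1 to 138 and 159 CPM (1.03, SE 0.12). LIN28B, which blocks the maturation of let-7 microRNAs, fell from 20.3 and 15.1 to 8.20 and 7.91 CPM (-1.13, SE 0.15), in a list of small RNA pathway genes with 6 of 16 lower and 1, TARBP2, higher (2 higher without NC replicate 1, and without cytoplasmic NC replicate 2).

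Nuclear-retained RNAs did not move together. NEAT1, the scaffold of paraspeckles (chromosome 11, 65422774 to 65445540), rose from 933 and 1114 to 2348 and 2122 CPM, 2.18-fold (log2 fold change 1.13, SE 0.15, adjusted p = 1.5e-06). MALAT1, its neighbour on the chromosome, had 316 and 307 CPM in NC and 280.2 and 273 with siPANAD and was not called (-0.17, SE 0.12, adjusted p = 0.254). Of 25 genes of paraspeckles and nuclear-retained lncRNAs 5 (HULC, NEAT1, OIP5-AS1, PSPC1 and PURPL) were higher and 6 lower (3 higher without siPANAD replicate 2). Other lncRNAs changed further. CASC19 fell from 90.7 and 73.9 to 17.02 and 16.9 CPM (-2.28, SE 0.14), LUCAT1 from 14.1 and 12.6 to 2.44 and 3.23 (-2.24, SE 0.20) and CALCRL-AS1 from 22.5 and 21.5 to 4.91 and 3.86 (-2.32, SE 0.18). LINC01488 rose from 1.18 and 1.79 to 13.7 and 14.5 CPM (3.24, SE 0.24) and FAM111A-DT from 1.13 and 2.02 to 11.2 and 10.7 (2.78, SE 0.23).

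Host genes of snoRNAs and microRNAs had 13 of 32 lower and 2 (SNHG10 and SNHG11) higher (1 higher without NC replicate 1 or siPANAD replicate 2). MIR17HG, the host of the miR-17-92 cluster and a MYC target, went from 8.17 and 7.53 to 3.005 and 1.57 CPM (-1.76, SE 0.24), and TAF1D, a factor of RNA polymerase I transcription that carries snoRNAs in its introns, from 228 and 218 to 126 and 115 (-0.89, SE 0.13). Markers of other cell types moved with siPANAD as well. ESAM, an adhesion molecule used as an endothelial marker, had 160.0 and 171 CPM in NC and 24.97 and 28.8 with siPANAD (-2.62, SE 0.14), and it made up most of the summed endothelial markers, 222.1 and 227.2 CPM before normalisation in NC and 49.6 and 52.1 with siPANAD. Of the 6 endothelial markers tested, 4 were lower, ESAM, PECAM1 (-2.13), TIE1 (-1.33) and CLDN5 (-1.14), VWF was higher (0.99) and STAB2 was not called. The summed fibroblast and stellate markers were at 29.1 and 24.5 CPM in NC and 23.1 and 25.1 with siPANAD. Immune markers summed to 128.3 and 152.2 CPM in NC against 110.8 and 98.6. The cholangiocyte markers had the largest sum, 1463 and 1246 CPM in NC and 1047 and 1012 with siPANAD. Among those tested, SPP1 (-1.35), SOX9 (-0.56) and KRT19 (-0.41) were lower, while ANXA4 and EPCAM were not called. The part of all these markers in the results was not tested.

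Whether the nuclear change differed from that in the cytoplasm was tested as the nuclear minus the cytoplasmic log2 fold change in the same fit. By this test 1730 genes (9.89%) differed, 859 with the more positive value in the nucleus and 871 with the more negative one. The count depended on single libraries. Fewer genes differed without any 1 siPANAD library of either fraction, and more differed without either cytoplasmic NC library. Without nuclear NC replicate 1 there were 537 and 632 in the 2 directions. With no filter on low counts 1889 differed, of which 68.2% were more positive in the nucleus, against 49.7% as reported.

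Ribosomal protein genes separated the fractions most clearly among the lists examined in this way. In the nucleus 5 of 79 (RPL29, RPL34, RPL39, RPS9 and RPS19) were called higher and 4 (RPL12, RPL17 and RPS26 among them) lower with a median of 0.03, shares below the background, and the median in the cytoplasm was 0.92. The difference was called for 57 of the 79, all with the lower value in the nucleus, with a median of -0.89. The number ran from 34 without nuclear siPANAD replicate 2 to 61 when 1 library was left out, and no gene had the higher value in the nucleus under any setting tried. RPL12 had 293 and 310.3 CPM in the NC nucleus and 228 and 249 with siPANAD (-0.34), against 0.98 in the cytoplasm, a difference of -1.32 (SE 0.20, adjusted p = 1.3e-04). The nuclear call of RPL12 alone (adjusted p = 0.0485) was lost without any 1 of the 4 nuclear libraries (0.0549 to 0.308) or either cytoplasmic siPANAD library (both 0.104), with no filter on low counts (0.0789) and with a minimum count of 50 (0.0842). The counts of 5 higher and 4 lower genes were 0 and 3 without NC replicate 1 and 9 and 2 without NC replicate 2. Ribosomal protein genes have many processed pseudogenes, so reads may be split among copies.

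**Figure D5:**
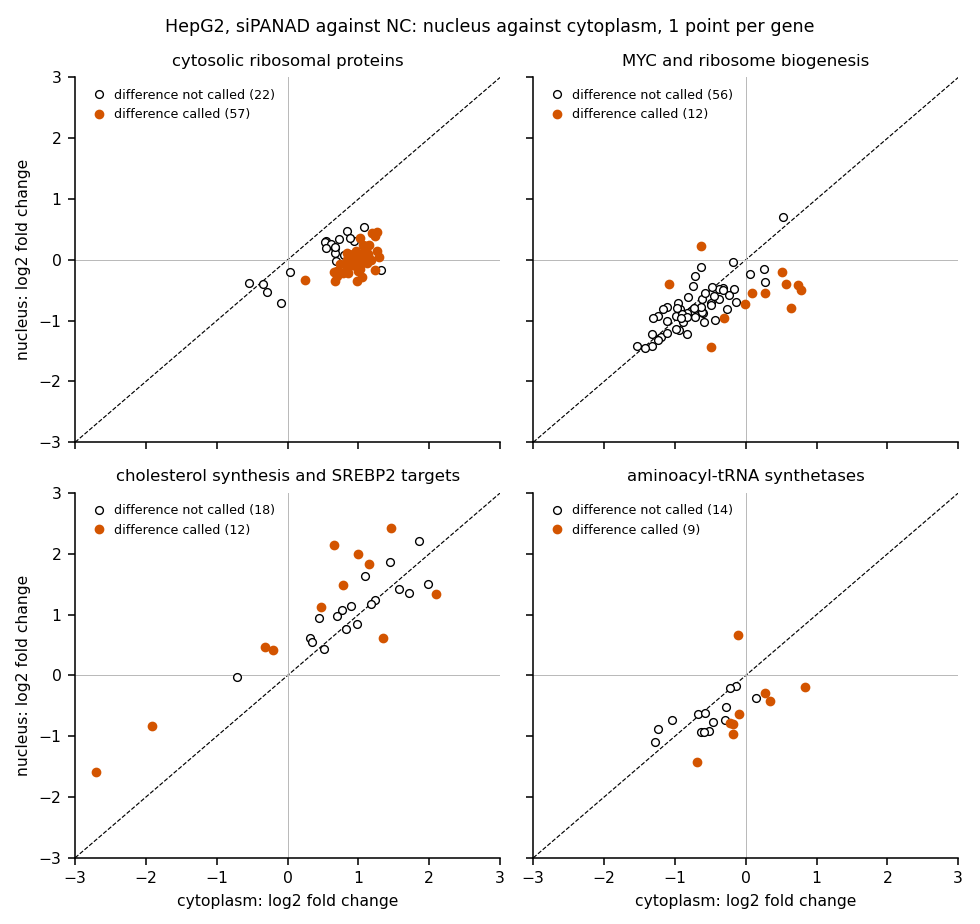
Log2 fold change with siPANAD in the HepG2 nucleus (vertical) against that in the cytoplasm (horizontal) for the genes of 4 lists, 1 point per gene, filled where the difference between the fractions is called; on the dashed line both fractions change alike. Ribosomal protein genes (57 of 79 called) lie below the line at nuclear values near 0, ribosome biogenesis genes mostly near the line and below 0, and cholesterol genes mostly on or above it.

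CDK6 and NEAT1 were among the genes with the more positive nuclear value. The log2 fold change of CDK6 was -0.56 in the nucleus and -1.71 in the cytoplasm (difference 1.15, SE 0.17, adjusted p = 1.3e-04), and that of NEAT1 1.13 and -0.27 (difference 1.40, SE 0.22, adjusted p = 2.0e-04). The same held for LSS (2.14 in the nucleus, 0.65 in the cytoplasm), HMGCS1 (2.42 and 1.46) and SLC2A3 (-2.12 and -3.31). In the cholesterol list 12 of 30 differed, 10 with the higher value in the nucleus, and 7 differed without nuclear NC replicate 1 or either nuclear siPANAD library. The more negative nuclear value was found for GNL3 (-1.44 and -0.49), POLR1E (-0.90 and 0.16), TAF1D (-0.89 and 0.29) and YAP1 (0.02 and 0.90). SNRNP70 was higher in the nucleus and lower in the cytoplasm (0.87 and -0.41), one of 67 genes with calls in these opposite directions, while 70 had the reverse.

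The deepest differences between fractions, among genes called in the nucleus, had various origins. SHH, the signalling protein sonic hedgehog, had 11.96 and 19.1 CPM in the NC nucleus and 22.2 and 19.9 with siPANAD (0.44, SE 0.17, adjusted p = 0.0406), and its log2 fold change was -1.75 in the cytoplasm. UBAP1L went from 6.35 and 7.67 to 13.9 and 15.4 CPM in the nucleus (1.06, SE 0.17), against 3.24 in the cytoplasm, and NDUFB1, a subunit of respiratory complex I, from 17.8 and 16.7 to 21.9 and 23.0 (0.38, SE 0.15, adjusted p = 0.038), against 2.18. The nuclear call of SHH was lost without NC replicate 1 (0.591), without siPANAD replicate 1 (0.215) or 2 (0.0703), and in DESeq2's Wald test (0.103). That of NDUFB1 was lost without any 1 nuclear library (0.0905 to 0.177) and in the Wald test (0.087), but their differences from the cytoplasm held in each of those fits.

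The nucleus of SNU-449, a line with mesenchymal traits, was used to ask how far the response is shared between the lines. The difference between the lines was tested as the SNU-449 minus the HepG2 nuclear log2 fold change in 1 fit of 16 libraries, and 4279 of 20459 genes (20.9%) differed, 2312 with the more positive value in SNU-449 and 1967 with the more negative one. For ribosome biogenesis the median was -0.80 in HepG2 and -0.19 in SNU-449, and 40 of 68 genes differed, 38 of them more positive in SNU-449. MYC had 176 and 195.6 CPM in the SNU-449 nucleus with NC and 203 and 165 with siPANAD, against its fall in HepG2 (1.41, SE 0.19, adjusted p = 3.2e-07). Cholesterol genes had medians of 1.12 and -0.08, with 23 of 31 different and 22 of these lower in SNU-449, such as HMGCS1 (-2.19) and LSS (-2.25). Immediate-early genes had medians of -1.08 and -0.10, with 22 of 35 different.

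G2/M genes, in contrast, had medians of -0.45 in HepG2 and -0.48 in SNU-449, and 7 of 58 differed between the lines, fewer than the 20.9% over all genes. IGFBP1, at 15.5 and 15.6 CPM in the SNU-449 nucleus with NC and 5.71 and 5.66 with siPANAD, had -1.45 there (difference 3.21, SE 0.25, adjusted p = 1.2e-11). NEAT1 rose in both, by 2.15 in SNU-449, from 424 and 425 CPM to 1826 and 1946 (1.03, SE 0.18, adjusted p = 2.9e-05 for the difference). MALAT1 rose by 0.51 in SNU-449, was not called in HepG2, and the difference was called (0.69, SE 0.16, adjusted p = 0.00121). CDK6 had -0.83 in SNU-449, from 111 and 110.4 CPM to 66.1 and 58.7, and no difference from HepG2 was called (-0.26, SE 0.16, adjusted p = 0.263).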

How the data were processed

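Gene counts per library, deposited by the authors as 1 table for HepG2 and 1 for SNU-449, were the starting point. Per the submitters' processing notes, reads were trimmed with Trim Galore 0.6.4 and aligned to hg38 with HISAT2 2.2.1. Per the labels' protocols the libraries keep strand, but the counting program, its annotation and its use of strand are not given in the sources used here, so overlapping genes and near-identical copies are uncertain. A single broken entry was left out of each table. Identifiers were matched to GENCODE 29, which left 0.158% of the HepG2 nuclear counts outside it, and 0.932% fell in rows without a symbol.

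Genes were filtered with filterByExpr (minimum count 10), normalised by TMM and fitted with edgeR 4.0.16 (robust quasi-likelihood, R 4.3.3), with 1 mean per group over the 8 HepG2 libraries, 4 residual degrees of freedom and a biological coefficient of variation of 0.101, or over all 16 libraries with 8 residual degrees of freedom for the difference between lines. SE is the log2 fold change divided by the square root of the F statistic. TMM factors were 1.21 to 1.25 in nuclear NC and 1.36 to 1.4 with siPANAD. Pipeline and fit were tested on simulated counts. Alternatives were DESeq2 1.42.0 (Wald test, size factors), other filters, the nuclear libraries alone, a replicate block, a 1.5-fold test and leaving out each library.

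Genes named by rule were those of the study, the 15 largest changes in each direction at 5 CPM or more without overlap of replicates, the 5 largest changes of CPM, lncRNAs and differences between fractions or lines, the 3 largest per list and direction, and regulators that head a list. UTP20, NAT10, UTP18, MDN1, IMP4, IFIT3, ISG15, SQLE and FDFT1, and members named only to spell out a small count, were chosen after their values were seen. Lists and members were chosen with earlier results of these data known, so no list is independent evidence of its direction. Some genes that meet these rules are not reported here.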

Additional observations from a re-analysis of the deposited data

Results flagged for a closer look

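The changes below differed between fractions or between lines by edgeR's test of the difference itself (two-sided, adjusted p under 0.05), given as log2 differences. More positive in the HepG2 nucleus than in its cytoplasm were CDK6 (1.15), NEAT1 (1.40), SNRNP70 (1.28), SLC2A3 (1.20), LSS (1.49), HMGCS1 (0.96) and SHH (2.19). The pseudogene GTF2IP23 (2.59), the chemokine gene CCL14 (3.09), the lncRNA LINC00265 (2.27) and the pseudogene PLD5P1 (2.83) also differed, at 1.98 to 7.91 CPM in the nucleus. Of these, CCL14 lost its call without cytoplasmic NC replicate 2 (0.0526) or siPANAD replicate 2 (0.0744), LINC00265 without 4 different libraries (0.0513 to 0.103) and PLD5P1 without any 1 of the 8 libraries (0.0612 to 0.147) or with no filter on low counts (0.0553).

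More negative in the nucleus than in the cytoplasm were RPL12 (-1.32), H2BC12 (-1.36), TAF1D (-1.18), POLR1E (-1.06), GNL3 (-0.94), YAP1 (-0.88), GARS1 (-0.74), CARS1 (-0.79), TPR (-0.73), NDUFB1 (-1.80) and UBAP1L (-2.18), the lncRNAs MANCR (-1.69) and LINC02021 (-3.01), and ANKDD1A (-3.40). GARS1 lost its call without cytoplasmic siPANAD replicate 1 (0.0568) or 2 (0.0779) or nuclear siPANAD replicate 1 (0.0779), and CARS1 without cytoplasmic siPANAD replicate 2 (0.0584). TPR lost it without 4 different libraries (0.0564 to 0.127), MANCR likewise (0.0501 to 0.0942), LINC02021 without nuclear NC replicate 1 (0.0776) and ANKDD1A without cytoplasmic siPANAD replicate 1 (0.223).

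More positive in the SNU-449 nucleus than in the HepG2 nucleus were IGFBP1 (3.21), EGR1 (2.91), AKAP12 (2.39), MYC (1.41), NEAT1 (1.03), MALAT1 (0.69), TMC8 (4.12), TNNC1 (4.58), LINC00659 (3.95), SLC22A11 (4.94) and SLC6A14 (5.70). More negative there were HMGCS1 (-2.19), LSS (-2.25), IRF1 (-2.01), CYP3A43 (-9.76), CAPN3 (-5.10), FER1L5 (-4.95), TREH (-4.95) and TNFRSF14-AS1 (-5.60). In the SNU-449 nucleus the counts of SLC6A14 were 0 and 0 in NC against 2 and 1 with siPANAD, SLC22A11 0 and 0 against 6 and 8, TNFRSF14-AS1 4 and 0 against 0 and 0, and CYP3A43 1 and 3 against 0 and 0, so the sizes of these 4 differences depend on the prior count. SLC6A14 lost its call without SNU-449 siPANAD replicate 1 (0.132) and TNFRSF14-AS1 without SNU-449 NC replicate 1 (1).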

How the results depend on the processing

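Tested against a change of 1.5-fold instead of 0, 2776 genes were called in the HepG2 nucleus, 1557 higher and 1219 lower. Leaving out each HepG2 library in turn gave 5723 to 8936 calls in the nucleus (2742 to 4506 higher, 2896 to 4779 lower), 841 to 2346 differences between fractions (419 to 1217 and 414 to 1255), and, leaving out each nuclear library of either line, 3113 to 4113 differences between lines (1662 to 2120 and 1409 to 1993). For the fractions, 1010 differed without cytoplasmic siPANAD replicate 1 (414 more negative in the nucleus), 1077 without replicate 2 (433), 1057 without nuclear siPANAD replicate 1 (544 more positive, 513 more negative), 841 without replicate 2 (419 and 422), and 537 were more positive without nuclear NC replicate 1. With no filter 1889 differed, 68.2% of them more positive in the nucleus, against 49.7%. DESeq2's Wald test gave 6251, 1592 and 3633 calls for the nucleus, the fractions and the lines. HepG2 replicates with the same number did not deviate together across genes (correlations -0.125 to 0.0497). With 2 libraries a group, this cannot show whether same-numbered libraries came from the same culture. With the replicate number as a block 7684, 1569 and 4181 genes were called. Of the named results, HNF4A (adjusted p = 0.0532), RPL12 (0.0737) and the PLD5P1 difference (0.0584) were not called with that block, which changed no other call among them. YAP1 turned to -0.052 without nuclear NC replicate 1 and -0.112 without nuclear siPANAD replicate 1, with 0.120 as the highest value when 1 library was left out, and the cause was not tested. Of 3622 values for 235 single gene results under all alternatives, 3501 kept direction and side of the threshold, 118 lost the call, 1 gained it and 2 turned direction. Genes under about 1 CPM, and C7orf25 itself, are limited by depth.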
